A study of Homo sapiens with 8 samples.

Results

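The 4 HOX gene clusters were examined for open chromatin in H1650 cells, an established human line from a non-small cell lung tumour, by ATAC-seq, in which a transposase inserts sequencing adapters into accessible DNA. A region was a stretch covered by the deposited peaks of any of the 8 libraries, with peaks merged where they overlapped or touched. The members were the regions overlapping a fixed hg19 window around each cluster. The windows were chromosome 7 from 27.12 to 27.26 Mb for HOXA, chromosome 17 from 46.60 to 46.82 Mb for HOXB, chromosome 12 from 54.32 to 54.46 Mb for HOXC and chromosome 2 from 176.94 to 177.07 Mb for HOXD. The rule found 33 regions of 46665 in all: 13 in HOXA, 3 in HOXB, 5 in HOXC and 12 in HOXD. The study asked how silencing of hMENA, an actin regulator encoded by ENAH, and of its epithelial isoform hMENA11a alters tumour cells. Each of the 4 groups had 2 libraries. Untreated cells were grown without siRNA. The other groups were transfected, with Lipofectamine RNAiMAX and 20 nmol/L siRNA, with a non-targeting pool (siControl), a mix of 3 siRNAs against exon 11a (siMena11a) or a pool against ENAH (siMena). All were the same cell line, and no label ties the replicates to separate cultures, so p-values measure only the spread between libraries. Identity of the line and the knockdown were not checked here, and peak lists do not measure ENAH RNA or protein.

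HOX genes encode homeodomain transcription factors that give cells their position along the body axis. In each cluster the genes lie in the order of the body levels they pattern, from anterior genes with low numbers to posterior genes with high numbers. Outside their normal domain the clusters are usually kept closed by Polycomb proteins, and in adult tissues a cell's open clusters tend to record its origin. In lung, HOXA5 is known for its part in airway and alveolar development. By RefSeq gene order (GRCh38.p14, used for names and order only), all 38 member genes were found. HOXA runs from HOXA2, a hindbrain patterning gene, at the lower-coordinate end to HOXA13, a limb and urogenital gene, at the higher. HOXB runs from HOXB1, another hindbrain gene, to HOXB13, a prostate and hindgut gene. HOXC runs the other way, from HOXC13, known for hair and nail formation, to HOXC4, and HOXD from HOXD13, a digit gene, to HOXD1. The clusters' ends are named by these genes. No region was assigned to a single gene, as positions of genes in hg19 were not analysed here.

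Promoters of 3 end genes are shown because the ends of the most and the least covered cluster are described here. Each line gives the 250 bases before the RefSeq start (GRCh38.p14, minus strand), 5′ to 3′, with CG dinucleotides in capitals.
HOXA13: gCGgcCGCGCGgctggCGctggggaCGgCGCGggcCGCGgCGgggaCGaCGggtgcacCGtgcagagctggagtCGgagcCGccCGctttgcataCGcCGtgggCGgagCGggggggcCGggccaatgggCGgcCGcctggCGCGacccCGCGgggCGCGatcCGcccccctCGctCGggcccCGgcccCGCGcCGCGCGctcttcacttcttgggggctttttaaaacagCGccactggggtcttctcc
HOXA2: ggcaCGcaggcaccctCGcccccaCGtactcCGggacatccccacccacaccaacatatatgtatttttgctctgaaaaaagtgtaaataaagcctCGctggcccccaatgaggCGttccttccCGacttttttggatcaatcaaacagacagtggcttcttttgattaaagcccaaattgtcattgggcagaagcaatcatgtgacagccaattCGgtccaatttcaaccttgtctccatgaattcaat
HOXB1: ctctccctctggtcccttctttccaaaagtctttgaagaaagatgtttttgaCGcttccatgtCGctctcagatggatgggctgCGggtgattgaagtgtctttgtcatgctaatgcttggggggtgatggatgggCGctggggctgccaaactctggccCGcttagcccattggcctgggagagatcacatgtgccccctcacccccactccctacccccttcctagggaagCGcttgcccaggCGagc
The HOXA13 stretch holds 40 CG dinucleotides, the HOXA2 stretch 8 and the HOXB1 stretch 7. The promoter table held 27 promoters of 20 member genes, with a median of 19 CG in 250 bases, against 11 over 35116 promoters of all genes. These entries are not all separate: several are alternative starts of HOXA3, and HOXC4 and HOXC5 have the same 250 bases. The promoter table held 16 promoters in HOXA and 8 in HOXD, but 1 in HOXB and 2 in HOXC, so clusters were not compared by CG content. Whether a listed region covers any of these promoters was not analysed here.

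HOXA and HOXD were the open clusters, HOXC was listed at few places, and HOXB was close to empty. Merged over all libraries, the HOXA window held 92.9 regions per Mb and HOXD 92.3, HOXC held 35.7 and HOXB 13.6. The chromosomes that carry them held 18.2, 16.9, 16.4 and 20.1 regions per Mb in the same order. Regions covered 6.35% of the HOXA window and 5.26% of HOXD, but 1.73% of HOXC and 0.430% of HOXB. The sequence within 500 kb on either side was not similarly dense. It held 20 regions per Mb around HOXA and 9 around HOXD, against 29 around HOXC and 19 around HOXB.

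A like order, with HOXA and HOXD above HOXC and HOXC above HOXB, was seen within most of the longer lists. Which of HOXA and HOXD had more regions differed by list. In untreated replicate 1 the HOXA window had 11 regions, HOXB 0, HOXC 3 and HOXD 9. In untreated replicate 2 these were 6, 0, 1 and 8, in siControl replicate 1 they were 9, 1, 2 and 7, and in siMena11a replicate 1 they were 12, 2, 4 and 12. The siMena replicate 1 list had 4 in HOXA, 0 in HOXB, 3 in HOXC and 2 in HOXD, so HOXC was there not below HOXD. The 3 remaining lists, replicate 2 of siControl, siMena11a and siMena, held 1 HOXD region together. The excess over the flanks was counted per library. HOXA was denser than its flanks in 5 of 8 libraries and sparser in 2, with a mean difference of 30.1 regions per Mb ± 30.3 (SD, n = 8; two-sided exact permutation p = 0.0625, adjusted p = 0.0833 over the 4 clusters). HOXD was denser in 6 and sparser in 1, by 33.4 ± 33.3 (n = 8; exact permutation p = 0.0313, adjusted p = 0.0625). HOXB was sparser than its flanks in 6 libraries and denser in 0, with a difference of -5.05 ± 4.32 (n = 8; exact permutation p = 0.0313, adjusted p = 0.0625). HOXC did not differ detectably, at -0.14 ± 6.03 (n = 8; exact permutation p = 0.938). No cluster passed 0.05 after adjustment, and the 8 libraries are of a single line, so the test covers libraries and not cell populations. With the replicate 2 lists of the transfected groups set aside, the differences were 49.0 in HOXA, 52.7 in HOXD and -7.87 in HOXB, each in the same direction in the 5 libraries left, where no exact p can fall below 0.0625.

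**Figure D1:**
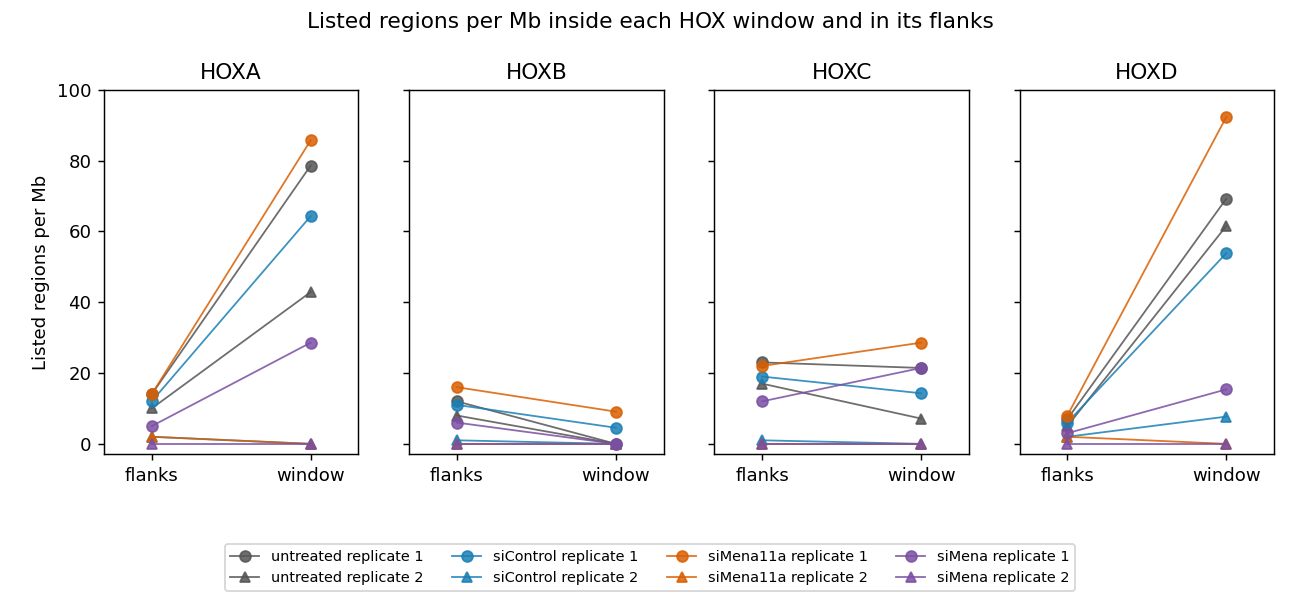
Listed regions per Mb (vertical axis) in the flanks, 500 kb on each side, and inside each HOX window, with a line for each of the 8 libraries (colour for group, circle for replicate 1 and triangle for replicate 2). In HOXA and HOXD the lines of the 4 replicate 1 libraries and of untreated replicate 2 rise into the window, in HOXB they fall, and in HOXC they go both ways.

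The lists differed widely in length. They held 34782, 22424, 27304 and 5231 peaks in untreated replicates 1 and 2 and siControl replicates 1 and 2, and 35472, 2832, 14678 and 1020 in siMena11a and siMena, in the same order. The genome-wide background, a measure of depth in tags per position, was 0.538 to 0.935 in replicate 1 and 1.09 to 2.88 in replicate 2, so the shortest lists had the highest background. Its part in the listing was not tested. Of 33 HOX regions, untreated replicate 1 listed 23 (69.7%, against 72.4% of all regions), untreated replicate 2 listed 15 (45.5% against 46.4%) and siControl replicate 1 listed 19 (57.6% against 56.7%). The siMena replicate 1 list held 9 (27.3% against 30.2%). These shares lay within 3 percentage points of those over all regions. The siMena11a replicate 1 list held 30 (90.9% against 74.6%). In siControl replicate 2 it was 1 region (3.03% against 10.9%), and siMena11a and siMena replicate 2 listed 0, against 5.92% and 2.14% of all regions.

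No HOX region was listed in more than 5 libraries, while 9.36% of all regions were. The number listed in at least 2 libraries was 23 (69.7%, against 68.8% of all regions) and in at least 5 it was 8 (24.2% against 24.6%). All 4 replicate 1 lists shared 8 HOX regions, 7 of them also in untreated replicate 2. Of the 10841 regions in the series with that 5-library pattern, 36.2%, 20.6% and 5.55% were also in the replicate 2 lists of siControl, siMena11a and siMena. Of the 7 HOX regions, 0 were in any of these. This difference was not tested.

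**Figure D2:**
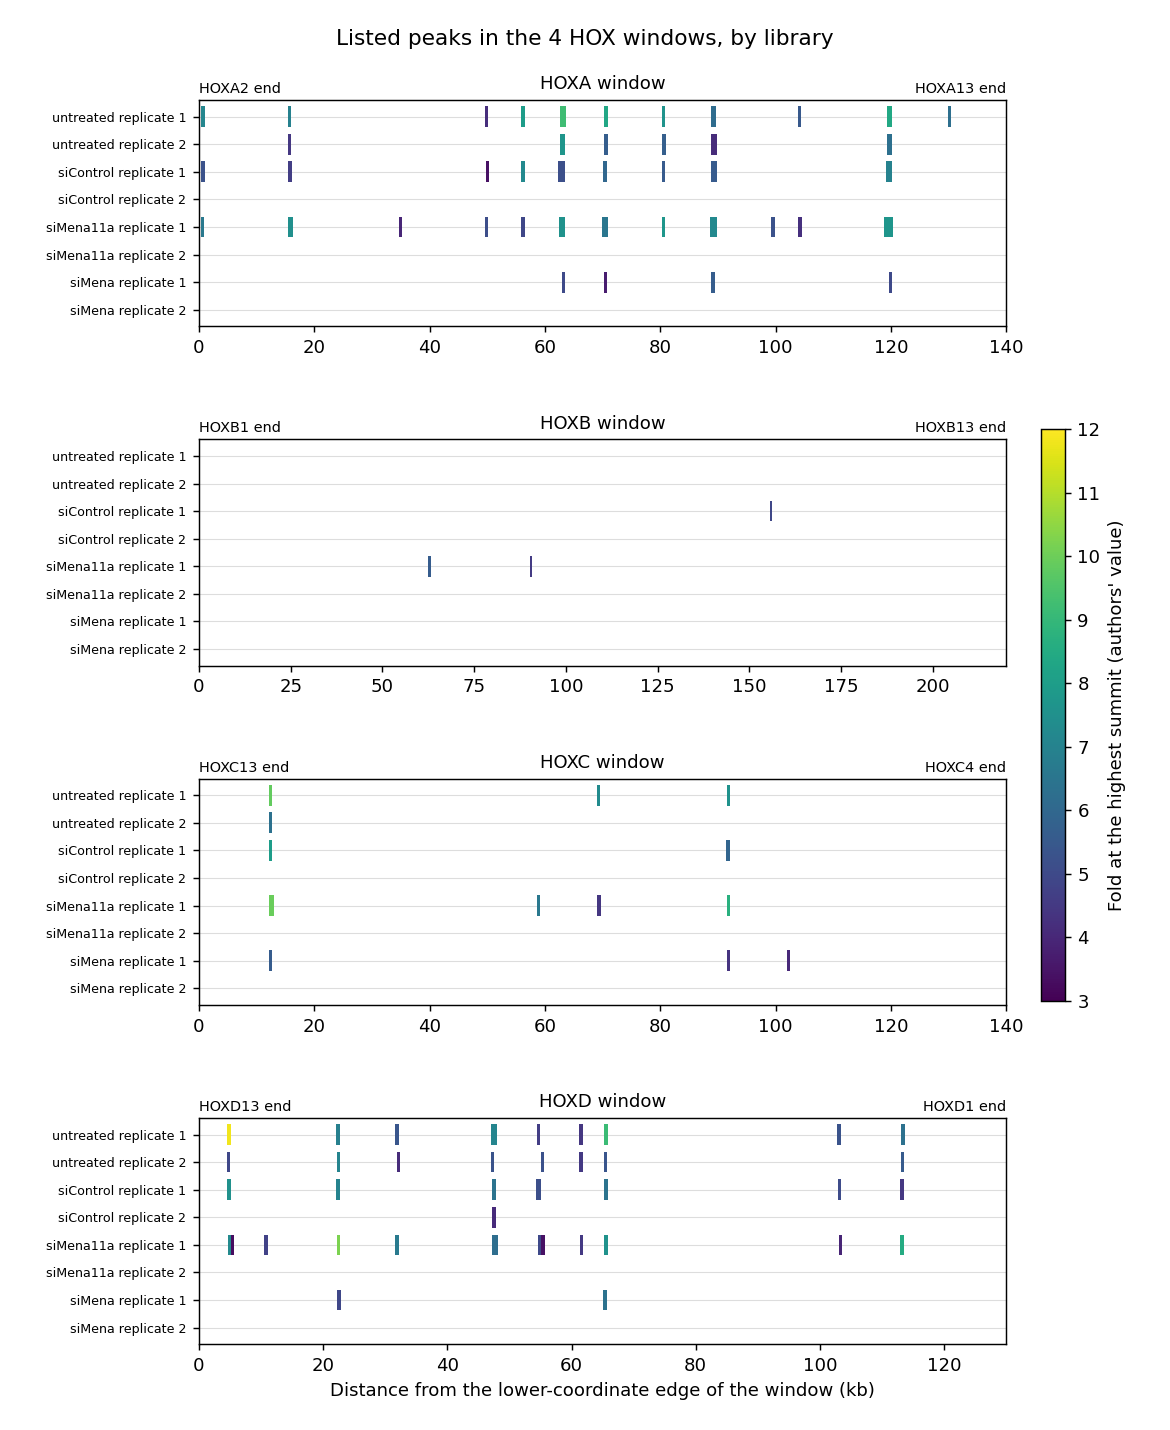
Listed peaks along each HOX window, as distance in kb from its lower-coordinate edge, in 8 rows for the 8 libraries, coloured by the authors' fold at the highest summit (bars span all peaks of a library in a region and are drawn at least 0.6 kb wide). HOXA peaks recur between 62.3 and 89.9 kb and near 119 kb, HOXD peaks between 22.1 and 65.8 kb, and HOXB holds 3 peaks in single libraries.

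In HOXA the regions shared by 5 libraries lay from somewhat below the middle of the window to near the HOXA13 end. They began 62.3, 69.9, 88.7 and 118.9 kb from the lower edge, and all were in the 4 replicate 1 lists and untreated replicate 2. Counting regions in at least 4 libraries by their centres, 2 lay below the midpoint of 70 kb and 4 above it, with 1 of the 4 straddling it. No lean to one end was tested. The longest empty stretch between regions, 18.6 kb, lay in the HOXA2-side part, between 27136282 and 27154855. The region nearest the HOXA13 end in 5 libraries, chr7:27238891-27240380, had the highest median score percentile of the cluster. At 1490 bp it was also the widest of all 33. Its fold, the authors' ratio of tags at the highest summit to the local background with 1 added to each, was 8.40 in untreated replicate 1 and 6.29 in replicate 2. Among the transfected replicate 1 libraries it was 6.96 for siControl, 7.68 for siMena11a and 4.98 for siMena. The siControl and siMena11a libraries lay between the untreated replicates, and siMena replicate 1 lay below them. The highest summits of the 5 libraries lay within 39 bp of each other.

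The 3 further HOXA regions in 5 libraries, named after their values were seen, lay on its HOXA2 side. They began 62.3, 69.9 and 88.7 kb from the lower edge, with the libraries in differing order. The region chr7:27182282-27183576 had a fold of 9.19 and 7.69 in untreated replicates 1 and 2, and of 5.17, 7.54 and 5.02 in replicate 1 of siControl, siMena11a and siMena. Both untreated libraries thus lay above the 3 transfected ones there. The region chr7:27189885-27191000 had 8.37 and 5.67 in untreated cells and 5.97, 6.55 and 3.73 in the transfected libraries in that order. Here the groups overlapped. The region chr7:27208702-27209896 had 6.16 and 4.09 in untreated cells and 5.54, 7.25 and 5.61, with siMena11a replicate 1 highest and untreated replicate 2 lowest. From the HOXA2 side to the HOXA13 side, the 4 regions held up to 3, 4, 3 and 4 summits in a library.

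The outer ends of the HOXA window were listed more thinly. The lowest region, chr7:27120511-27120887, 0.51 kb inside the HOXA2-side edge, was in 3 libraries, with folds of 7.14, 5.28 and 6.65 in untreated, siControl and siMena11a replicate 1. The highest, chr7:27250018-27250279, was in untreated replicate 1 alone, at a fold of 6.25 from 12 tags. The other HOXA regions were listed in 1 to 4 libraries, with folds from 3.40 to 7.94.

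HOXB was listed at 3 places, each in a single transfected library and in neither untreated list. The region chr17:46662687-46663031, nearest the HOXB1 end and first of the cluster by score percentile, had a fold of 5.60 from 13 tags in siMena11a replicate 1. The region chr17:46690359-46690760 had a fold of 4.55 from 11 tags in the same list. The region chr17:46755804-46756003, nearest the HOXB13 end, had 4.90 from 9 tags in siControl replicate 1. All lay low in their lists, at score percentiles of 26.8, 9.78 and 9.09. The window had an empty stretch of 65.0 kb between regions, and 62.7 and 64.0 kb without a region at its edges. A region not listed is not shown to be closed, since a peak below the authors' q limit of 0.01 would not appear.

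HOXC had its most widely listed region near the HOXC13 end and its others in the middle and higher part of the window, with 3 regions centred below the midpoint and 2 above. The region chr12:54332193-54333015, 12.2 kb from the lower edge, was in 5 libraries. Its fold was 9.84 and 6.37 in untreated replicates 1 and 2 and 7.96, 9.95 and 5.60 in siControl, siMena11a and siMena replicate 1. Untreated replicate 1 and siMena11a replicate 1 were alike and high, and siMena replicate 1 was lowest. A stretch of 45.7 kb without a region followed. Toward the HOXC4 end, chr12:54411582-54412167, named after its values were seen, was in all 4 replicate 1 lists, with folds of 7.59 for untreated, 5.90 for siControl, 8.72 for siMena11a and 4.35 for siMena. The outermost region on that side, chr12:54422160-54422398, was in siMena replicate 1 alone, at a fold of 4.02 from 8 tags. The 2 remaining HOXC regions were in 1 and 2 libraries, with folds of 4.44 to 7.30.

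HOXD held 9 of 12 regions in the part toward HOXD13, below the midpoint by their centres, and 3 above. Among regions in at least 4 libraries the split was 3 and 2. The region chr2:176962129-176962657 led by score percentile and was in 5 libraries. It had a fold of 6.88 and 7.06 in untreated replicates 1 and 2. In replicate 1 of the transfected groups it reached 7.04 for siControl, 10.2 for siMena11a and 4.92 for siMena. Untreated and siControl libraries were alike there, siMena11a replicate 1 stood above them and siMena replicate 1 below. The region chr2:177005239-177005803, named after its values were seen, had 9.12 and 5.36 in untreated replicates and 6.43, 7.57 and 6.41 in the replicate 1 libraries of siControl, siMena11a and siMena. The transfected libraries lay between the untreated ones. Beyond it 37.0 kb held no region, the longest such stretch of the cluster. The region nearest the HOXD13 end, chr2:176944547-176945218, had the highest fold of any HOX region, 11.8 in untreated replicate 1, but 4.93 in untreated replicate 2. It had 7.50 in siControl and 7.27 in siMena11a replicate 1 and was not in siMena. At the HOXD1 end, chr2:177052964-177053529 had 6.31 and 5.56 in untreated cells, 4.45 in siControl and 8.51 in siMena11a replicate 1. Both ends of HOXD were thus listed in 4 libraries, unlike those of HOXB.

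**Figure D3:**
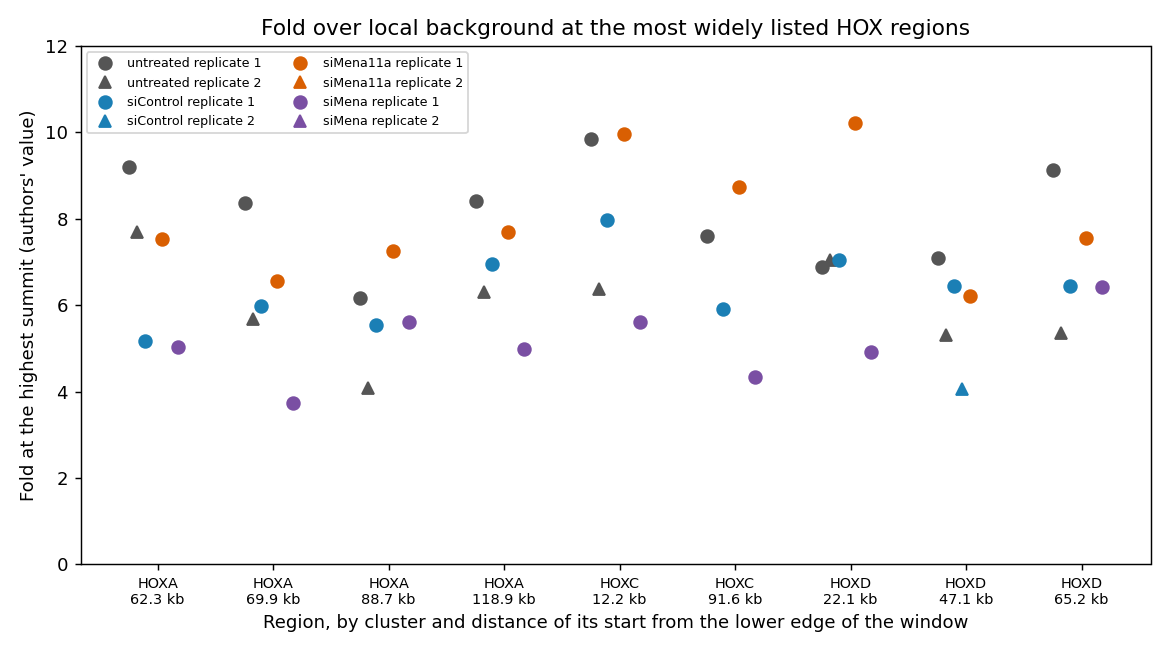
Authors' fold at the highest summit (vertical axis) for the 9 HOX regions in 5 libraries or in all 4 replicate 1 lists, by cluster and distance in kb of the region's start from the lower edge of its window, with a point for each library that lists it. Orange circles (siMena11a replicate 1) lie above blue (siControl) at 8 of 9 regions, and untreated replicates are up to 3.76 apart. Purple circles (siMena) lie lowest of the replicate 1 points at 7 of the 8 where they appear. Over all 12873 regions in the 4 replicate 1 lists, siMena11a lay above siControl at 65.9%. The median fold over these was also lowest in siMena, at 6.20, against 9.05 for untreated, 7.75 for siControl and 8.54 for siMena11a.

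HOX regions in 4 or 5 libraries had a higher median width than all regions listed as often. HOX peaks more often had several summits in most of the longer lists, although most had 1. Among regions listed in exactly 5 libraries, the median width was 1080 bp in HOX (8 regions) and 675 bp in the whole series. The widest of the 8 were in HOXA, at 1116 to 1490 bp, while those in HOXC and HOXD had 529 to 1044 bp. Among regions in 4 libraries (5 in HOX) the median was 672 bp in HOX and 533 bp in the series. Among those in 1 library it was 232 and 235 bp. Within lists, 28.0% of the 25 HOX peaks of untreated replicate 1 had more than 1 summit, against 15.0% of all its peaks. The shares were 25% against 14.8% in untreated replicate 2, 33.3% against 16.6% in siControl replicate 1 and 43.3% against 20.0% in siMena11a replicate 1. In siMena replicate 1, 0 of 10 HOX peaks did, against 11.7%. Multiple summits were thus more frequent in 4 of the 5 lists with several HOX peaks. The difference was not tested.

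By the authors' score, HOX peaks spread over most of each of the 5 longer lists. Their lowest percentile was 0.0916 to 5.73 and their highest 70.2 to 92.5, by list. Their median score percentile, in the middle or lower part, was 56.6 and 25.7 in untreated replicates 1 and 2. It was 54.3 for siControl, 47.9 for siMena11a and 29.6 for siMena in replicate 1. At the 8 HOX regions shared by the 4 replicate 1 lists, the median fold was 8.39 for untreated, 6.20 for siControl, 7.62 for siMena11a and 5.00 for siMena. Over all 12873 regions so shared it was 9.05, 7.75, 8.54 and 6.20, higher in each list. In HOXA a high local background stood beside these folds. The 4 shared HOXA regions had a median local background of 3.56 tags for untreated, 5.27 for siControl, 5.44 for siMena11a and 3.62 for siMena. Over all shared regions this was 1.82, 2.36, 2.68 and 1.58. All 4 exceeded that median in each list. Their median pileup was 38.5, 35, 46 and 22 tags, against 25, 25, 31 and 15 over all. Counted in tags, the HOXA regions thus stood high, while their folds did not. The 4 shared HOXC and HOXD regions had a local background of 1.65, 2.32, 2.38 and 1.42 tags, close to all regions. Background was also high near HOXA, with medians of 3.56, 4.56, 5.31 and 3.10 tags at 4 shared regions in its flanks, and 2.16, 2.74, 3.04 and 1.84 at the 920 shared regions of chromosome 7. Copy number of chromosome 7 in this line was not tested.

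**Figure D4:**
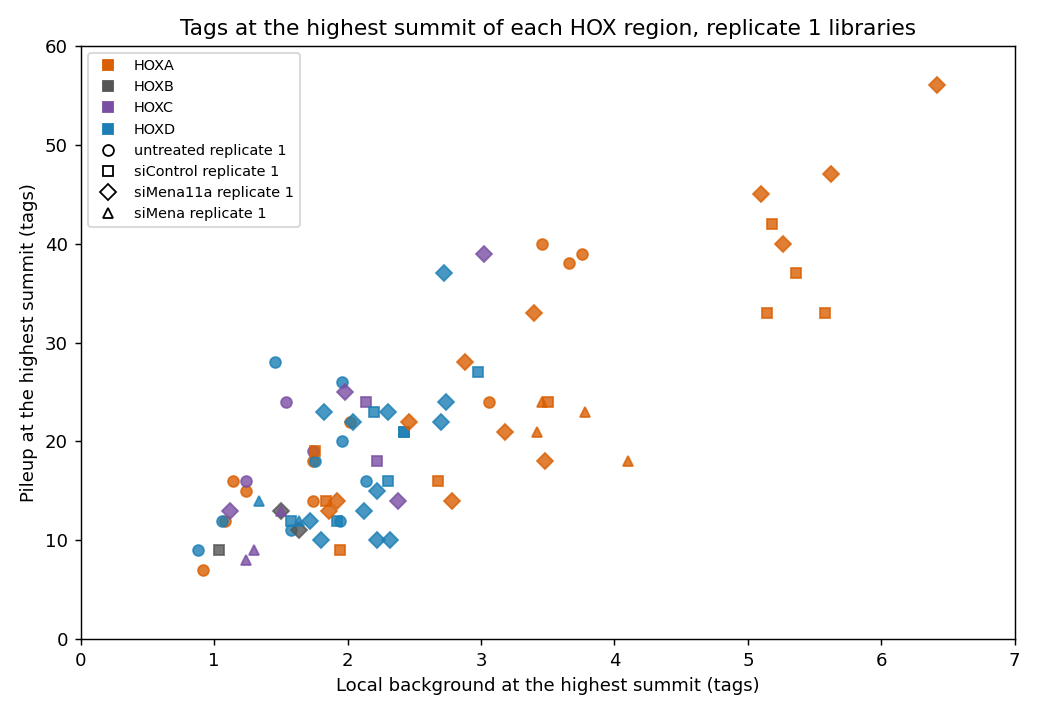
Pileup (vertical axis) against local background (horizontal axis), both in tags, at the highest summit of each HOX region in the 4 replicate 1 libraries, with colour for cluster and symbol for library. HOXA regions reach local backgrounds of 6.42 tags and pileups of 56 tags, while HOXC and HOXD regions stay at or below 3.02 tags of background.

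Silencing of hMENA11a was compared with siControl to ask which HOX regions open or close with it. A region was gained if it was in both siMena11a lists and in neither siControl list, and lost in the opposite case. Of 33 HOX regions 0 were gained (0.0279% of all 46665 regions were) and 0 were lost (0.0557%). Since siMena11a replicate 2 listed no HOX region, none could be gained. None could be lost either, as siControl replicate 2 listed 1 HOX region and siMena11a replicate 1 held it too. Within replicate 1, siMena11a had 12 HOX regions that siControl lacked (36.4%, against 24.2% of all regions) and lacked 1 that siControl had (3.03% against 6.25%). The 12 fell in all 4 clusters, at folds of 3.31 to 6.68 in siMena11a replicate 1, whose median fold over all peaks was 6.57, 7 of them in that list alone. At the 8 shared regions the fold was higher in siMena11a than in siControl replicate 1 at 8 of 8, by a median of 0.36 on the log2 scale (0.13 to 0.56). Over all shared regions the median was 0.12, with 65.9% above 0. With a single library on each side these values have no replicate check. HOX regions per 1000 listed regions were 0.861 (95% exact Clopper-Pearson interval up to 1.23) in siMena11a replicate 1 and 0 in replicate 2. In siControl they were 0.718 (up to 1.12) and 0.197 (up to 1.10). Intervals cover counting error only. A count of 0 in the 2764 regions of siMena11a replicate 2 allows up to 1.09 per 1000 by the limit of 3 counts, and up to 1.33 by the exact interval. A share like that of replicate 1 lies under both, so a list this short could not show a difference from it. The difference of the means was -0.03 (two-sided exact permutation p = 1.0, n = 2 per group). With 2 libraries against 2, p cannot fall below 0.33. It was positive in replicate 1 (0.143) and negative in replicate 2 (-0.197).

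Silencing of hMENA as a whole against siControl asked the same question. There were 0 gained HOX regions (0.00214% of all regions) and 1 lost (3.03%, against 1.03% of all). None could be gained, as siMena replicate 2 listed no HOX region. The lost region, chr2:176987116-176988159 in HOXD, had folds of 6.43 and 4.07 in the siControl replicates, from 21 and 16 tags. It was also in untreated replicate 1 (7.09), untreated replicate 2 (5.30) and siMena11a replicate 1 (6.22), and in no siMena list. It was the only HOX region that siControl replicate 2 listed, so no other could be lost. The highest summits in the siControl libraries lay 195 bp apart. Within replicate 1, siMena had 1 HOX region that siControl lacked (3.03% against 1.81%) and lacked 11 that siControl had (33.3% against 28.2%). The siMena fold was the lower at 7 of 8 shared regions, with a median log2 ratio of -0.46 (-0.68 to 0.02). Over all shared regions the median was -0.29, with 18.3% above 0, so most of these were lower in siMena too. HOX regions were 0.638 (up to 1.21) per 1000 in siMena replicate 1 and 0 in replicate 2, whose 997 regions allow up to 3.01 by the limit of 3 counts and 3.69 by the exact interval. The difference from siControl was -0.14 (two-sided exact permutation p = 0.667, n = 2 per group), and it was -0.081 within replicate 1 and -0.197 within replicate 2.

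For the effect of transfection, siControl was set against untreated cells. The count of gained HOX regions was 0 (0.12% of all regions) and of lost regions 2 (6.06%, against 3.65% of all). None could be gained, since siControl replicate 2 listed 1 HOX region and both untreated lists held it too. With that list nearly empty of HOX regions, the lost calls rested on absence from siControl replicate 1. Both lost regions lay in HOXD. The region chr2:176971518-176972348 had a fold of 5.41 and 4.12 in untreated replicates 1 and 2, and chr2:177001396-177001749 had 4.42 and 4.48. Each was also in siMena11a replicate 1, a transfected library, at 6.68 and 4.49. Both were weak, from 12 to 16 tags in untreated lists. Within replicate 1, siControl had 1 HOX region that untreated lacked (3.03% against 6.93%) and lacked 5 that untreated had (15.2% against 22.7%). Within replicate 2, it had 0 that untreated lacked (0% against 1.07%) and lacked 14 (42.4% against 36.6%). Folds at the 8 shared regions were lower in siControl replicate 1 at 7 of 8, by a median log2 ratio of -0.33. Over all shared regions the median was -0.20, with 24.9% above 0, so most of these were not higher in siControl either. HOX regions were 0.680 and 0.693 per 1000 in untreated replicates (intervals up to 1.02 and 1.14). The difference of siControl from untreated was -0.23 (two-sided exact permutation p = 1.0, n = 2 per group). It was -0.495 within replicate 2 and 0.038 within replicate 1. The region chr2:176987116-176988159 was the only HOX region in all 4 lists. Its log2 fold, relative to the median of the regions in the same lists, was -0.51 and -0.32 in siControl and -0.53 and -0.68 in untreated replicates (two-sided exact permutation p = 0.33 for the difference of 0.19, n = 2 per group).

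Between the knockdowns, siMena11a against siMena, 0 HOX regions were gained (0.24% of all regions) and 0 lost (0.00643%). Neither call was possible, since replicate 2 of both groups listed no HOX region. Within replicate 1, siMena11a had 22 HOX regions that siMena lacked (66.7% against 45.5% of all) and lacked 1 (3.03% against 1.07%). At 8 of 8 shared regions the siMena11a fold was the higher, by a median of 0.72 on the log2 scale (0.24 to 1.05), beside 0.42 over all shared regions, 89.3% of which were above 0. The difference in HOX regions per 1000 was 0.11 (two-sided exact permutation p = 1.0, n = 2 per group). The comparisons with siControl share its libraries, and all 4 within replicate 1 compare single libraries whose lists differ in length.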

How the data were processed

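The 8 deposited peak lists, 1 per library, were used as given. Per the submitters' processing notes, reads were processed on hg19 with MACS2 (2.2.5), SAMtools (1.7), Bowtie2 (2.3.4.2) and FastQC (0.11.5) among the named tools. Trimming, duplicate removal and transposase shift are not given in the sources used here. The authors' fold is a ratio: tags at the summit plus 1, over local background tags plus 1, and their score is 10 times the −log10 q, rounded down, in nearly all rows. The −log10 p and −log10 q are the authors' deposited values, and the lists end at a q of 0.01. Folds and scores describe and rank peaks within a list.

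Tags and local background were recovered from the deposited fold and −log10 p by the Poisson tail, within 0.001. Their most frequent local value per list is the genome-wide background. Peaks were distinct intervals, and at least 1 bp of overlap listed a region. Score percentiles are ranks within a list. Where a list had several summits in a region, the highest fold was used. Group means were compared by exact permutation over libraries, and windows with flanks by exact sign changes over libraries, with Benjamini-Hochberg adjustment over the 4 clusters. The members, windows and tests were chosen with earlier results of these data known. Regions were to be named by rule: those in at least 6 libraries (there were 0), the first of each cluster by median score percentile, the outermost on each side, and those gained or lost. The comparison with the flanks was added after the data were seen. Merging, calls and tag recovery were tested on simulated data. Scripts ran in Python 3.11.15, with SciPy 1.17.1 for tests, pandas 2.3.3 and numpy 2.4.6 for tables, and matplotlib 3.10.9 for plots.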

Additional observations from a re-analysis of the deposited data

How the results depend on the processing

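The HOX counts rest on which lists enter. Shortened to the 1020 peaks of the shortest list, no list held a HOX region, so each cluster had 0 and the share could not be compared. With a −log10 q of at least 5, HOXA had 12, HOXC 4 and HOXD 10 regions, and HOXB 1. Among regions in at least 2 libraries, an alternative chosen after seeing the data, HOXA and HOXD had 10 each, HOXC 3 and HOXB 0. Setting aside the transfected replicate 2 lists changed no cluster's count.

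No lost region of siMena against siControl was called at a −log10 q of at least 5, with the 4 lists shortened or with peaks covering 50% of the region (0 each). For siControl against untreated, 1 lost region was called under each of these. Leaving out 1 library gave 0 to 12 gained and 0 to 1 lost regions for siMena11a against siControl, 0 to 1 and 1 to 11 for siMena against siControl, 0 to 1 and 2 to 13 for siControl against untreated, and 0 to 22 and 0 to 1 for siMena11a against siMena. The highest gained counts came without siMena11a replicate 2, and the highest lost counts without siControl replicate 2 (11) and siControl replicate 1 (13); without untreated replicate 2 it was 5.

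The difference in HOX regions per 1000 listed regions ran from -0.458 to 0.404 for siMena11a minus siControl, -0.458 to 0.180 for siMena minus siControl, -0.489 to 0.032 for siControl minus untreated and -0.319 to 0.543 for siMena11a minus siMena when 1 library was left out. The sign turned without siMena11a replicate 2 (0.404) and siControl replicate 1 (0.234) in the first, without siMena replicate 2 (0.180) and siControl replicate 1 (0.122) in the second, without siControl replicate 2 (0.032) in the third, and without siMena11a replicate 1 (-0.319) and siMena replicate 2 (-0.207) in the last. The relative fold ran from -0.082 (without siControl replicate 2) to 0.28 when 1 library was left out, and was 0.489 with pileup over the genome-wide background. The HOXC difference from its flanks was 0.357 with flanks of 250 kb. Leaving out 1 library, it ran from -1.51 to 1.24 and was positive without untreated replicate 1 (0.0612), untreated replicate 2 (1.24) or siControl replicate 1 (0.510). In HOXA, HOXB and HOXD no library left out turned the sign.

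With the replicate number as a block, the differences per 1000 had the same values (-0.027, -0.139, -0.229 and 0.112) and exact permutation p of 1.0, 0.5, 1.0 and 1.0, and the relative fold (0.191) had p = 0.5. The smallest p with 2 pairs is 0.5. The labels do not say that a number marks a shared batch, and the correlation of deviations was 0.35, 0.29 and 0.23 between transfected groups but 0.096, 0.049 and -0.072 between untreated and siControl, siMena11a and siMena. Not every pair exceeded 0.1, so the numbers were not taken as pairs. The relative fold could not be compared in the other comparisons, where no HOX region was in all 4 lists.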
